A study of Mus musculus and Rattus norvegicus with 11 samples.

Results

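The cells described here are the Schwann cells of NOD mice labelled as lacking Icam1, chosen as the barcodes that the deposited mouse annotation names mySC and whose suffix belongs to 1 of the 3 libraries so labelled. There were 124 of them, 46, 28 and 50 in knockout-labelled libraries 1, 2 and 3, out of 5127 annotated cells of those libraries, 1289 mySC of all mouse libraries and 15672 annotated mouse cells. Single cells had been taken from sciatic nerve and brachial plexus and read by droplet 3' RNA sequencing with unique molecular identifiers (UMIs). The knockout-labelled libraries (Icam1-/- NOD, 3 libraries) were set against NOD control (760 mySC), where libraries 2-1 and 2-2 were summed as NOD control 2, and C57BL/6 (405 mySC, 3 libraries) was used for description. Icam1-/- and control mice share the NOD background, which is prone to autoimmunity, and the series presents both as bearing on chronic autoimmune neuritis. The labels give no age, no number of animals per library and no design of the Icam1 allele. Enzymes had freed the nerve cells, myelin debris had been removed and live cells had been sorted. Every p-value measures only the spread between these libraries, which may be technical, and the knockout-labelled libraries may be runs of 1 sample.

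Schwann cells are the glia of peripheral nerve. Myelinating ones wrap single large axons and make large amounts of the sheath proteins Pmp22 and Mbp, while non-myelinating ones hold small axons and carry Scn7a, Ngfr and Ncam1. Interferon gamma, which T cells and NK cells secrete, binds its receptor, and the signal turns on genes through a short element called GAS and, with Irf factors, through the interferon-stimulated response element, ISRE. The targets include the guanylate-binding proteins and immunity-related GTPases, which attack the vacuoles of intracellular microbes, and the genes for MHC class I, which shows peptides to CD8 T cells. Type I interferon acts through the ISRE as well.

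The promoters of 4 genes on which the account turns are shown. Of these promoters 3 hold a match to the letters searched, and that of the heavy chain H2-D1 does not. Each is the 300 bases from 250 before to 50 after the start that RefSeq gives for GRCm38.p6, read on the plus strand, with matches in capitals. ISRE was searched as GAAA, any 2 bases and GAAA again, and GAS as TTCNNNGAA, on both strands, and the GAS letters read alike on both. Igtp (chr11:58199306-58199605) holds a GAS and, after it and without overlap, an ISRE that begins 34 bases before the start, while the ISRE of Gbp2 (chr3:142620413-142620712) lies on the other strand, its first printed base 59 before the start. The ISRE of B2m (chr2:122147437-122147736) begins 139 bases before the start. H2-D1 (chr17:35262844-35263143) had 0 matches, and its annotated gene begins upstream of this window.
Igtp: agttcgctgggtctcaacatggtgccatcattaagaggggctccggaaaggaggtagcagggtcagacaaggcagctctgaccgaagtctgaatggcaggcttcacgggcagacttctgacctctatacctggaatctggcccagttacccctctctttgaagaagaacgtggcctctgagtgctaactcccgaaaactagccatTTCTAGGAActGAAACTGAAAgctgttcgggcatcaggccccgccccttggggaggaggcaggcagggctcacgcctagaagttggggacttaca
Gbp2: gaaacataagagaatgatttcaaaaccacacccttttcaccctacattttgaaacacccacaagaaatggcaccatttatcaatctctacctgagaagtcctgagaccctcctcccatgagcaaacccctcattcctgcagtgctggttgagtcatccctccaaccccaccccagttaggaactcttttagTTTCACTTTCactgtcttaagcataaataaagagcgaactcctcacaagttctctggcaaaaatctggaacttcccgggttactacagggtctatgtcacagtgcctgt
B2m: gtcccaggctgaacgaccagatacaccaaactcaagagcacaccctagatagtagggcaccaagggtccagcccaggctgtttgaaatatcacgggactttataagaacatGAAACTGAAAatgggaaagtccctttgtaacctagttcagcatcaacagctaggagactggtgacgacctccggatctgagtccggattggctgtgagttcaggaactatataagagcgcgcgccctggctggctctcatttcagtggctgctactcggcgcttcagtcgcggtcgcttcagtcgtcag
H2-D1: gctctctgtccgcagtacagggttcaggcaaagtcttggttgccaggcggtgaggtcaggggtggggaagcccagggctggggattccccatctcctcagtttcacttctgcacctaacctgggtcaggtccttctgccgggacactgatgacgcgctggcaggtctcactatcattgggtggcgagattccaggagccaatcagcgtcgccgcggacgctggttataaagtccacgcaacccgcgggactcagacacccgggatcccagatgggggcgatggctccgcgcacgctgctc
Of the 14 interferon GTPase genes on the list used, 10 had a promoter in the table, and 9 of these held an ISRE and 6 held a GAS. Of 9 MHC class I chain genes 3 held an ISRE match and 1 a GAS match, and of 27025 genes listed there 3.99% and 9.55% did. A match describes these letters and is not shown to be a site in use, and an element with other letters would not be counted.

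The mySC of the knockout-labelled libraries gave 79535, 43779 and 77002 UMIs, with medians of 1266, 1236 and 1066 per cell and a range of 480 to 5139 over all 124. NOD control 1 had 13094 UMIs in 20 mySC and NOD control 2 had 555558 in 740, with medians of 534, 569.5 and 621.5 UMIs per cell in the single control libraries. Levels are given as CPM, the UMIs of a gene scaled to an equal total of UMIs of the cell type in each library. Of the 124 barcodes 0 occurred in another library with the same 16 bases. Icam1 (chr9:21015985-21028817, plus strand, mm10), the adhesion molecule named by the label, had 11 UMIs in 9 knockout-labelled mySC, at 62.9, 22.8 and 64.9 CPM, the lowest of 7 cell types in each library. Myeloid cells (MC) averaged 536 CPM and CD8 cells 353 CPM in the same libraries. Samples 1 and 2 of NOD control mySC had 76.4 and 9.00 CPM, from 1 UMI in the first and 2 and 3 UMIs in libraries 2-1 and 2-2. A 3' tag does not show which part of the gene was deleted, so these counts do not check the label.

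Schwann cell markers were concentrated in these barcodes. Egfl8, a secreted protein, stood at 1069, 936.5 and 818.2 CPM in knockout-labelled mySC and was counted in 62 of 124 cells, while the next type, BC, averaged 9.71 CPM. Kcna1, a potassium channel, was at 855, 593.9 and 610.4 CPM against 7.29 CPM on average in pDC, the next type. Sox10, the transcription factor that sets Schwann identity, had 85 UMIs in 56 mySC. Sostdc1, a secreted BMP and Wnt antagonist, was at 2301, 2330 and 2234 CPM against 37.0 CPM on average in CD4 cells, the next type. The cells named nmSC had 0 Sox10 UMIs in 187 cells and led with fibroblast genes, so they are called here by their deposited name alone. Summed over 10 pan-Schwann genes, mySC held 7783, 7195 and 7026 CPM, against 263, 207 and 202 CPM in nmSC. All 3 values of mySC lay far above those of any other type.

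Next to the other annotated types of the same 3 libraries, mySC carried the highest levels of several MHC class I and interferon GTPase transcripts, above the T cells themselves. These are descriptions over 3 libraries with no test, since the clusters were built on the same genes. H2-D1 (chr17:35262730-35267499), a classical class I heavy chain, was at 8600, 9182 and 8298 CPM in mySC. It averaged 8694 ± 449 CPM (SD, n = 3) there, 6105 ± 91.4 CPM in CD8, 5724 ± 42.2 CPM in CD4, 4013 ± 555 CPM in endothelial cells (EC) and 1137 ± 398 CPM in nmSC. B2m (chr2:122147686-122153083), the light chain of every class I molecule, averaged 10814 ± 346 CPM in mySC and 7610 ± 233 CPM in CD4 cells. The summed class I chains reached 24694, 25674 and 23649 CPM in mySC, while CD8 cells held 19176, 18070 and 19072 CPM and nmSC 4264, 2495 and 3439 CPM. The ranges of mySC and CD8 cells did not overlap.

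**Figure D1:**
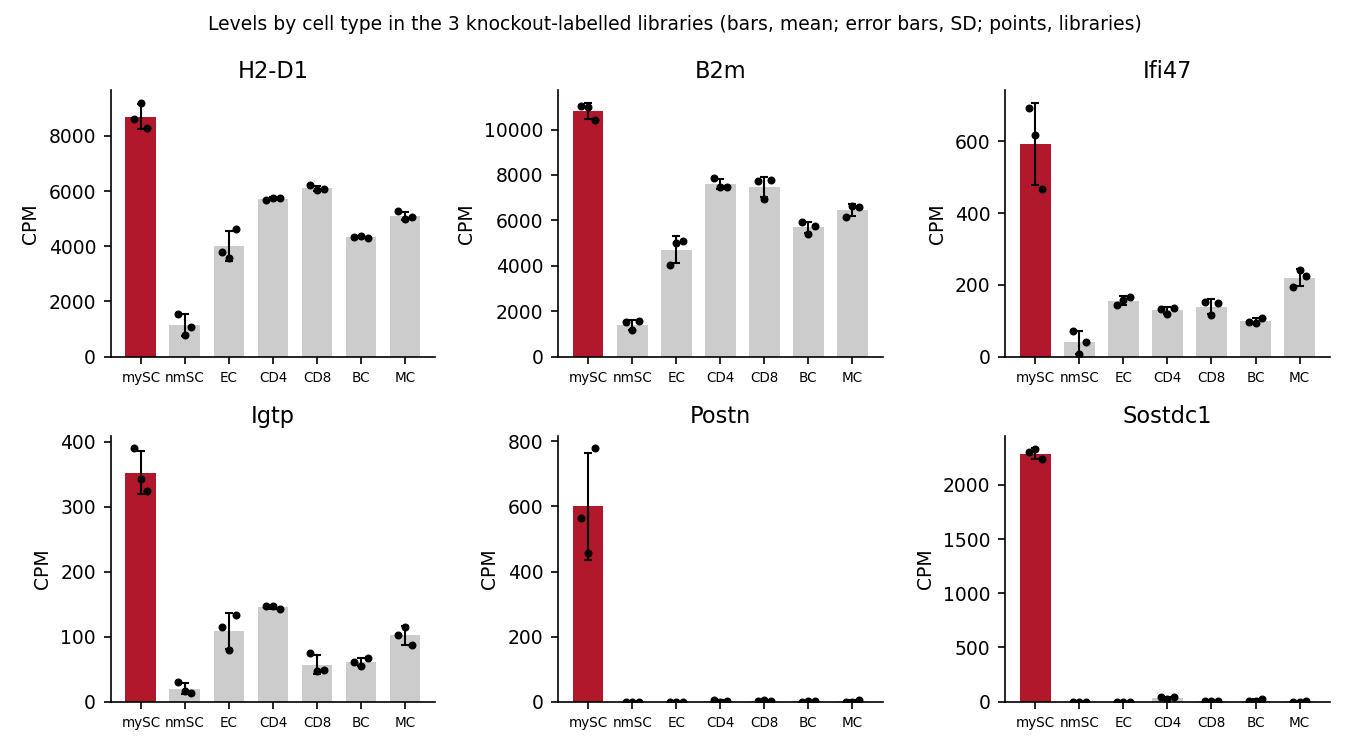
Levels (CPM) of single genes in 7 annotated cell types of the 3 knockout-labelled libraries, with mySC first. The types are mySC, nmSC, EC, CD4, CD8, BC and MC, and the smaller types are not drawn. Bars are means, error bars SD and points single libraries. H2-D1 averaged 8694 CPM in mySC against 6105 CPM in CD8 cells, and Postn 601 CPM in mySC with 0 UMIs in nmSC and EC.

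The GTPases separated mySC further. Ifi47 (chr11:49076587-49096974), an immunity-related GTPase, was at 691.5, 616.7 and 467.5 CPM in mySC, against means of 220 CPM in MC, 156 CPM in EC and 39.9 CPM in nmSC. Igtp (chr11:58199556-58207591), of the same family, averaged 352 ± 33.6 CPM in mySC, 145 CPM in CD4 cells and 20.2 CPM in nmSC (SD, n = 3). Over all 14 GTPases mySC held 3910, 3175 and 3156 CPM, EC 1517, 1736 and 1770 CPM, MC 1450, 1652 and 1496 CPM, and nmSC 303.9, 99.5 and 229.3 CPM. Iigp1, another member, was shared with endothelium. It averaged 391 ± 60.7 CPM in mySC from 76 UMIs in 24 cells and 363 ± 43.3 CPM in EC from 33 UMIs (SD, n = 3), with EC ranked first in library 3, and nmSC had 0 UMIs.

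Other interferon-linked genes did not all follow. Ranks are among the 7 types with at least 20 cells in each library, which leaves out pDC and fibroblasts. Tap1, which carries peptides into the endoplasmic reticulum, Irgm1, Gbp7, Ifit3 and Ubd, a ubiquitin-like modifier, were highest in mySC in each of the 3 libraries, but Ubd rested on 31 UMIs in 12 cells. Gbp2, Gbp3 and Zbp1 ranked first in 2 libraries, and H2-K1 and the immunoproteasome subunit Psmb8 in 0. Cd74, the invariant chain of class II, averaged 1911 CPM in mySC, far below B cells (47755 CPM) and MC (56064 CPM). Ccl8, a monocyte chemokine, was uneven, at 50.3, 594 and 571 CPM in mySC libraries 1, 2 and 3, with 387 CPM on average in MC. Ifng itself had 1 UMI in mySC and averaged 382 CPM in CD8 and 228 CPM in CD4 cells. Ifngr1, a chain of its receptor, was at 163 ± 19.9 CPM in mySC (SD, n = 3), which ranked 6, 7 and 7 of 7 types in libraries 1, 2 and 3.

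Postn (chr3:54361109-54391037), a matricellular protein, marked these cells within the libraries. It was at 565.8, 456.8 and 779.2 CPM in mySC, from 125 UMIs in 51 of 124 cells (41.1%), with 0 UMIs in nmSC and EC and 5 UMIs in 2041 CD4 cells. Scn7a, a sodium channel of non-myelinating Schwann cells, averaged 315 CPM in mySC and 70.1 CPM in nmSC. The low-affinity neurotrophin receptor Ngfr averaged 349 CPM in mySC, and the endothelin receptor Ednrb 379 CPM with 0 UMIs in nmSC.

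Read cell by cell, the high class I level was carried by little more than every other mySC. The share of a cell's UMIs that fell on the 9 class I chain genes ranged from 0% to 5.27% with a median of 2.07%, and medians in knockout-labelled libraries 1, 2 and 3 were 2.29%, 2.16% and 1.84%. At least 1.5% was found in 68 cells (54.8%, 95% Clopper-Pearson interval 45.7 to 63.8), called MHC-rich below. Under 1.0% was found in 48 cells, called MHC-poor, and 8 cells lay between, with 5 more at 1.5% to 2.0%. Both are ranges of 1 measure and not cell types. Of the MHC-poor cells 34 were under 0.5%, and of the MHC-rich cells 21 were at 3.0% to 4.0% and 15 at or above 4.0%. MHC-rich cells numbered 26, 15 and 27 in libraries 1, 2 and 3, which is 56.5%, 53.6% and 54.0% of their mySC.

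**Figure D2:**
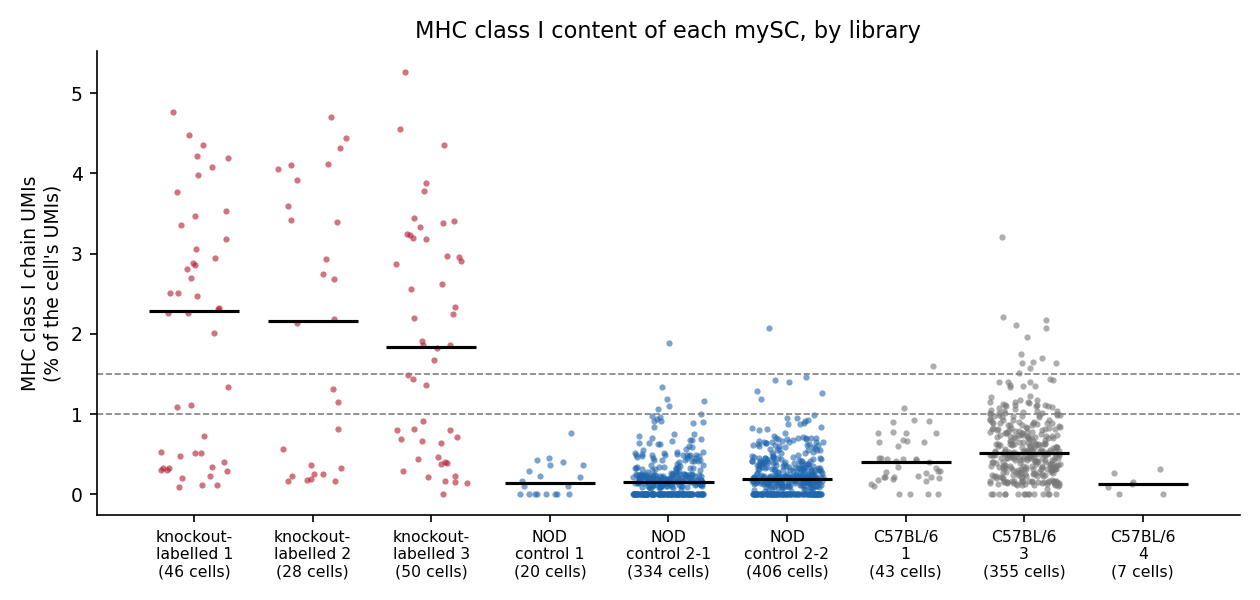
Share of each mySC's UMIs on 9 MHC class I chain genes (%), by library, with 1 point per cell and dashed lines at 1.0% and 1.5%. Of 124 knockout-labelled mySC 68 lay at or above 1.5%, against 2 of 760 NOD control mySC. C57BL/6 mySC, with 14 of 405, are drawn for description.

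In NOD control 2 of 760 mySC (0.263%, interval 0.0319 to 0.947) reached 1.5%, with a median of 0.175%, and in C57BL/6 14 of 405 (3.46%) did. Strains differ in their MHC haplotype and reads were counted on a C57BL/6 reference, so the C57BL/6 count is a description and is not compared with those of NOD mice. With every cell thinned to 500 UMIs and MHC-rich taken as at least 8 class I UMIs, the counts were 65 of 120 knockout-labelled mySC (54.2%) and 2 of 537 NOD control mySC. These intervals cover counting error only, and cells of a library are not replicates of a condition.

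Among annotated types with at least 20 cells in the knockout-labelled libraries, the spread was widest in mySC. The 10th and 90th percentiles of the class I share were 0.216% and 4.10% in mySC, 1.21% and 2.70% in CD8, 0.987% and 2.74% in CD4, and 0.565% and 1.87% in EC. In nmSC 3 of 187 cells (1.60%) reached 1.5%, while 74.7% of CD8, 64.7% of CD4, 46.0% of MC and 26.8% of EC did.

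MHC-rich mySC also carried the GTPases, which did not enter their definition. All 76 Iigp1 UMIs of the 124 cells lay in MHC-rich cells. Pooled levels in MHC-rich against MHC-poor cells were 777 and 22.2 CPM for Ifi47, and 462 and 22.2 CPM for Igtp. Gbp2 (chr3:142620602-142638008), a guanylate-binding protein, was at 944 CPM in MHC-rich and 88.8 CPM in MHC-poor cells, and Psmb8 at 1339 and 178 CPM. The type I interferon targets Bst2, a tether of budding viruses (1112 against 66.6 CPM), and Zbp1, a nucleic acid sensor (355 CPM against 0 UMIs), lay on the same side. The 14 GTPases summed to 4506 CPM in MHC-rich cells, 333 CPM in MHC-poor cells and 107 CPM in all NOD control mySC. At least 3 GTPase UMIs were counted in 53 cells, and all 53 were MHC-rich. At 500 UMIs per cell, 52 of 68 MHC-rich cells (76.5%) and 7 of 44 MHC-poor cells (15.9%) had a GTPase UMI. Over 120 thinned cells of 3 libraries, which share their source and their 500 UMIs, the class I count and the GTPase count had a Spearman correlation of 0.624, with 0.664, 0.531 and 0.613 within libraries 1, 2 and 3. With the type I list it was 0.454.

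Depth differed between the classes. MHC-rich cells had a median of 2114 UMIs and MHC-poor cells 813.5, and the thinned class I count had a Spearman correlation of 0.465 with depth. Among 71 cells with at least 500 and under 1500 UMIs there were 25 MHC-rich and 38 MHC-poor cells, and among 49 deeper ones 43 and 6. Both classes were present in each depth range. T cell transcripts were low in both, with 8 markers summing to 516 CPM in MHC-rich cells and 422 CPM in MHC-poor cells, where CD8 cells held 11636, 10821 and 11923 CPM. A T cell UMI was found after thinning in 19 of 68 MHC-rich (27.9%) and 6 of 44 MHC-poor cells (13.6%), and a cytotoxic list UMI in 29 of 68 (42.6%) and 28 of 44 (63.6%). Ccl5, which makes up much of that list, averaged 854 ± 366 CPM in mySC (SD, n = 3), 859 CPM in EC and 682 CPM in nmSC. Cells with no leukocyte marker UMI at all numbered 3 of 68 MHC-rich and 5 of 48 MHC-poor cells. The part of leukocyte RNA in these classes was not tested beyond these values.

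The MHC-poor cells were Schwann cells by their own markers. Pan-Schwann genes summed to 6991 CPM in MHC-rich and 8700 CPM in MHC-poor cells, and a UMI of that list was seen after thinning in 64 of 68 and 44 of 44 cells. MHC-poor cells held more Scn7a (100 CPM in MHC-rich against 1021 CPM in MHC-poor cells), more Fxyd1 and Fxyd3, regulators of the sodium pump (1152 against 4883 CPM and 154 against 666 CPM), and more Fth1, the ferritin heavy chain (1975 against 5815 CPM). Col1a1, a fibrillar collagen, ran the other way with 1158 CPM in MHC-rich and 333 CPM in MHC-poor cells, as did Pou3f1, a factor of Schwann cells about to myelinate (268 against 44.4 CPM). These genes were picked for the size of the difference between the classes and are given as a description. The 18 genes of the myelinating list summed to 10265 CPM in MHC-rich, 16889 CPM in MHC-poor and 57012 CPM in all NOD control mySC.

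**Figure D3:**
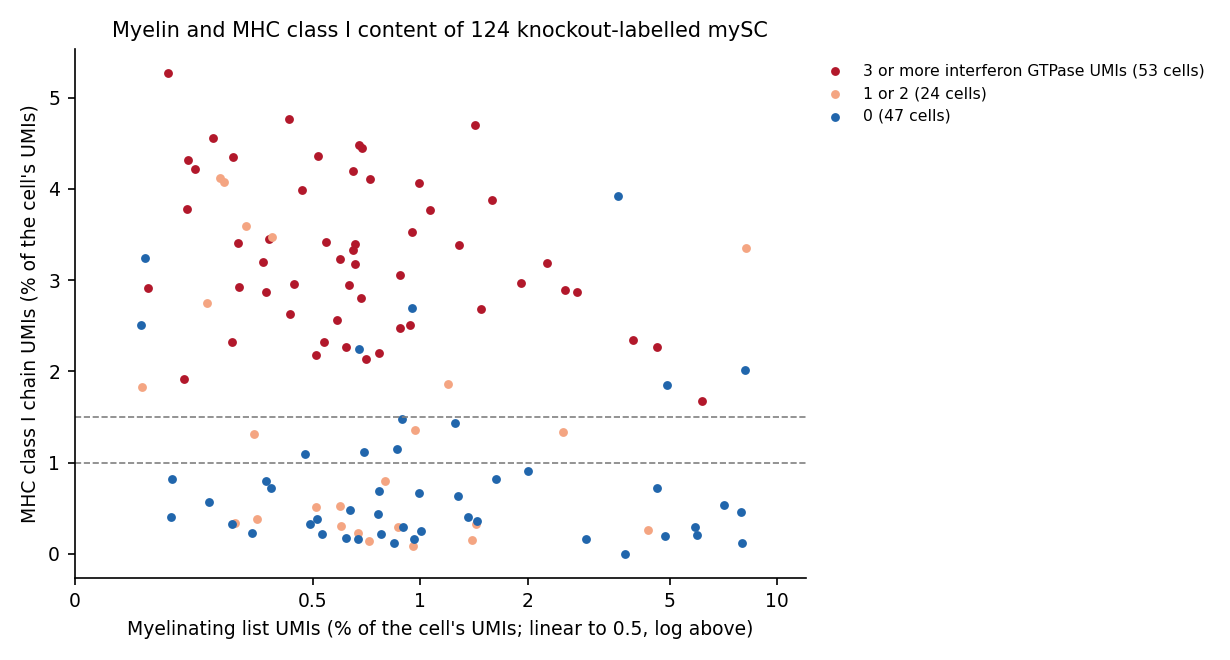
Share of UMIs on 18 myelinating genes (x axis, linear to 0.5% and logarithmic above) and on 9 MHC class I genes (y axis) in each of the 124 knockout-labelled mySC, coloured by GTPase UMIs, with dashed lines at 1.0% and 1.5%. All 53 cells with at least 3 GTPase UMIs lie at or above 1.5% class I, and only 8 cells exceed 5% myelinating UMIs.

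Few of these cells were rich in myelin transcripts. The myelinating list took a median of 0.684% and at most 8.15% of a cell's UMIs, and 8 cells were above 5%, of which 3 were MHC-rich. At 500 UMIs per cell the median was 3 myelinating UMIs in knockout-labelled mySC, 26 in NOD control and 4.5 in C57BL/6 mySC. By library the medians were 4, 3 and 3 UMIs in knockout-labelled libraries 1, 2 and 3, and 9, 38 and 7.5 UMIs in NOD control libraries 1, 2-1 and 2-2. All control medians lay above those of the knockout-labelled libraries, though the control libraries differed widely among themselves.

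The mix of states was read from Pmp22, a membrane protein of compact myelin, and from 10 non-myelinating genes at the same 500 UMIs, a pair chosen after the data were seen. Pmp22 was found in 33 of 46, 18 of 27 and 20 of 47 cells of knockout-labelled libraries 1, 2 and 3 (71.7%, 66.7% and 42.6%). NOD control libraries 1, 2-1 and 2-2 had it in 75.0%, 89.9% and 83.3% of cells, the first from 12 cells. Before thinning, when the knockout-labelled cells were the deeper ones, 87.1% of knockout-labelled and 85.0% of NOD control mySC held a Pmp22 UMI, so the shares lay apart in the thinned cells only. Of CD4 cells of the knockout-labelled libraries 1.86% held one. Non-myelinating genes were found in 52.2%, 40.7% and 48.9% of the thinned knockout-labelled cells and in 3 of 12, 54 of 207 and 159 of 318 thinned control cells of libraries 1, 2-1 and 2-2, so these shares overlapped. A cell with no such UMI at this depth may still express the genes.

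**Figure D4:**
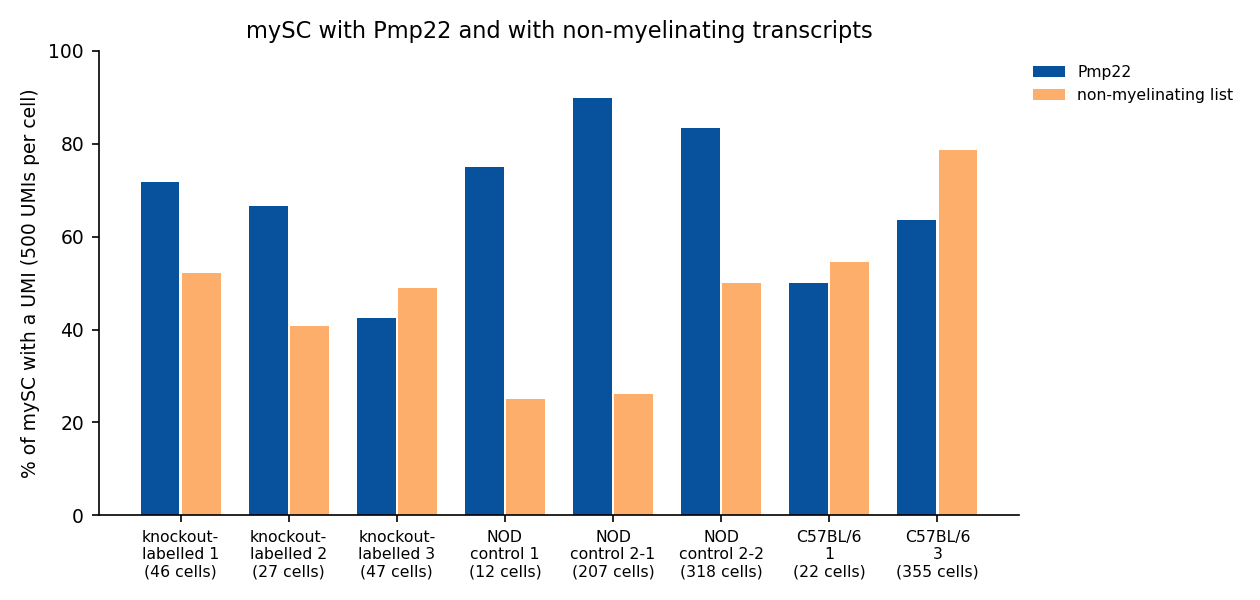
Share of mySC (%) by library with a UMI of Pmp22 and with a UMI of 10 non-myelinating genes, at 500 UMIs per cell, with the number of cells under each library drawn. C57BL/6 library 4, with 7 mySC, is not drawn. Pmp22 was found in 42.6% to 71.7% of knockout-labelled mySC and in 75.0% to 89.9% of NOD control mySC.

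MHC-rich cells occurred with and without non-myelinating transcripts. They made up 25 of 58 thinned cells with such a UMI (43.1%) and 40 of 62 without (64.5%), and the share was the lower one with such a UMI in each library, at 45.8%, 54.5% and 34.8% against 63.6%, 56.2% and 70.8%. A GTPase UMI was found in 60.3% of cells with a non-myelinating UMI and in 43.5% of those without. In libraries 1, 2 and 3 these shares were 66.7%, 63.6% and 52.2% with such a UMI and 36.4%, 37.5% and 54.2% without, so the direction turned in library 3. Across the 120 cells the class I count had a Spearman correlation of -0.238 with the myelinating list, -0.142 with the non-myelinating list and -0.305 with the pan-Schwann list. Within libraries 1, 2 and 3 the second of these was -0.154, 0.179 and -0.347, so its sign turned in library 2. All 3 are weak in sparse counts and describe these cells only, which share libraries and depth.

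To see how far the class I and interferon levels went with the label, mySC counts summed per sample were compared between the 3 knockout-labelled and 2 NOD control samples. Of 1711 genes tested, 195 (11.4%) passed an adjusted p of 0.05 with edgeR's quasi-likelihood test, 96 higher (5.61%) and 99 lower (5.79%), and the median log2 fold change over all genes was 0.02. Folds use TMM scaling, while CPM are per library total. In summed counts, fewer cells of a kind and fewer transcripts per cell cannot be told apart. Of 9 class I chain genes 8 passed the filter on low counts and 8 rose, with a median of 3.46. Of the 14 GTPases 7 passed the filter and 7 rose, with a median of 5.63, and of 18 type I genes 9 were tested and 8 rose. Genes that pass the filter only through the knockout-labelled cells had to differ, so these counts are a description. Of all genes, 50 passed without NOD control 2, 403 without NOD control 1 and 79 without knockout-labelled library 3, and with the 3 knockout-labelled libraries summed as 1 sample 121 did. Without NOD control 2, which leaves 20 control cells, 7 of 8 class I chains, 1 of 7 GTPases and 3 of 9 type I genes passed.

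Values in the 5 samples show the separation. B2m was at 11039, 10987 and 10415 CPM in knockout-labelled mySC and at 1451 and 1319 CPM in NOD control mySC, a log2 fold change of 2.83 ± 0.32 (SE, edgeR adjusted p = 2.3e-06). H2-T23, a non-classical class I chain read by NK receptors, was at 578.4, 845.2 and 558.4 CPM against 0 and 45.0 CPM, with a log2 fold change of 3.60 ± 0.43. Igtp was at 389.8, 342.6 and 324.7 CPM against 0 and 14.4 CPM, with a log2 fold change of 4.30 ± 0.47. Psmb8, a subunit of the immunoproteasome that trims peptides for class I, was at 1044, 1188 and 948 CPM against 76.4 and 82.8 CPM (3.38 ± 0.34). H2-T23, Igtp and Psmb8 passed the filter on low counts only through the knockout-labelled samples, so their p-values are not given. In all 4 the groups lay apart, and the control values of 0, for H2-T23 and Igtp, are those of NOD control 1, whose mySC had 13094 UMIs. Class I chains with near-identical copies, such as H2-Q6 and H2-Q7, may share reads, which the summed class I share does not depend on.

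Schwann genes changed unevenly with the label. Of the 15 myelinating genes tested 10 fell and 0 rose, with a median log2 fold change of -1.80. Pmp22 (chr11:63128982-63159547) was at 4878, 2947 and 3208 CPM in knockout-labelled mySC against 15885 and 28834 CPM in NOD control (-2.77 ± 0.36, edgeR adjusted p = 1.4e-05). Of 8 pan-Schwann genes tested 1 fell and 0 rose, with a median of 0.13, and Sox10 was at 326.9, 571.1 and 441.5 CPM against 534.6 and 387 CPM (-0.14, edgeR adjusted p = 0.873). Sostdc1 was at 2301, 2330 and 2234 CPM with the label and at 916.5 and 928.8 CPM without, and rose by 1.11 ± 0.27 on the log2 scale (edgeR adjusted p = 0.0076). Without knockout-labelled library 3 that call was lost (edgeR adjusted p = 0.0879). Ednrb, an endothelin receptor of immature Schwann cells, was at 264, 365.5 and 506.5 CPM against 229.1 (3 UMIs) and 55.8 CPM (2.28 ± 0.43). It passed the filter on low counts only through the knockout-labelled samples, so its p-value is not given, and without NOD control 2 its call was lost. All 5 tested genes of cholesterol synthesis, of 16 listed, fell, with a median of -2.38. Myelin membrane needs cholesterol. Srebf2, Idi1, Hmgcs1 and Fdps passed the filter on low counts only through the control samples and had to differ. So did others, among them Cldn19, Ncmap and Ugt8a of the myelinating list and S100b of the pan-Schwann list, so these counts are a description. Of the myelinating list, Mag, Drp2, Gjb1 and Fa2h, where tested, entered in the same way. Without NOD control 2, 5 of 15 myelinating and 0 of 3 cholesterol genes passed, and without knockout-labelled library 3 these counts were 6 of 14 and 1 of 3. With the knockout-labelled libraries summed as 1 sample, Pmp22 no longer passed (edgeR adjusted p = 0.365), nor did it among mySC without leukocyte marker UMIs, where it stood at -1.90 (edgeR adjusted p = 0.317).

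RNA of other sources and quality moved with the label too. The T cell list summed to 415, 662 and 532 CPM in knockout-labelled mySC and to 0 and 104 CPM in NOD control, and the cytotoxic list to 893, 982 and 1390 against 0 and 34.2 CPM. Mitochondrial transcripts summed to 25184, 25103 and 28856 CPM against 7026 and 13180 CPM. The part of either in the changes above was not tested.

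The question whether the label went with the same change in other nerve cells was put with an interaction term. In nmSC 82 of 2101 genes passed (3.90%), of which 2.38% were higher and 1.52% lower. H2-D1 was at 1560, 770.7 and 1079 CPM in knockout-labelled nmSC and at 593 and 477.9 CPM in control nmSC (1.07 ± 0.27, edgeR adjusted p = 0.0468). In mySC it was at 8600, 9182 and 8298 CPM against 76.4 and 419.4 CPM, and the difference of the effects was 3.39 ± 0.39 (SE, log2, edgeR adjusted p = 4.9e-15). Of 2429 genes in that model 115 (4.73%) passed, 2.06% with a larger and 2.68% with a smaller change in mySC, and the median difference over all genes was 0.10. Without NOD control 2, 13 genes passed, and without knockout-labelled libraries 1, 2 and 3 the counts were 61, 63 and 59. With the knockout-labelled libraries summed as 1 sample 2 genes passed, and H2-D1, at 3.85, was not among them (edgeR adjusted p = 0.683).

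Class I and interferon genes made up part of the positive side. Of 8 class I chain genes in the interaction model 5 passed with a larger rise in mySC (median 2.90), as did 6 of 11 genes of antigen processing (1.74), 3 of 9 GTPases (3.54) and 5 of 10 type I genes (2.56), with 0 the other way. In nmSC alone, 5 class I chains, 7 antigen processing genes, 0 GTPases and 3 type I genes passed the filter on low counts. Genes that enter the model only through knockout-labelled mySC had to differ, so these counts are a description. H2-T23 was at 151.9, 116 and 94.4 CPM in knockout-labelled nmSC and at 209.4 and 133.4 CPM in control nmSC, and its effects differed by 3.96 ± 0.49 (edgeR adjusted p = 4.1e-13). Gbp2 differed by 3.37 ± 0.67, and its p-value is not given since it did not pass the filter in nmSC alone. Psmb8 differed by 2.24 ± 0.51 (edgeR adjusted p = 8.7e-04). Iigp1, with 0 UMIs in knockout-labelled nmSC, did not pass (edgeR adjusted p = 0.0706). Without NOD control 2, 3 of 8 class I chains, 0 of 11 antigen processing genes, 0 of 9 GTPases and 1 of 10 type I genes passed, among the first H2-D1 and H2-T23, while Gbp2 and Psmb8 did not (edgeR adjusted p = 0.555 and 0.583). Without knockout-labelled libraries 1, 2 and 3, 2, 1 and 3 of 11 antigen processing genes and 3, 2 and 3 of 10 type I genes passed. Without library 1, 1 of 8 GTPases passed, and Psmb8 was lost without library 2 (edgeR adjusted p = 0.1).

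**Figure D5:**
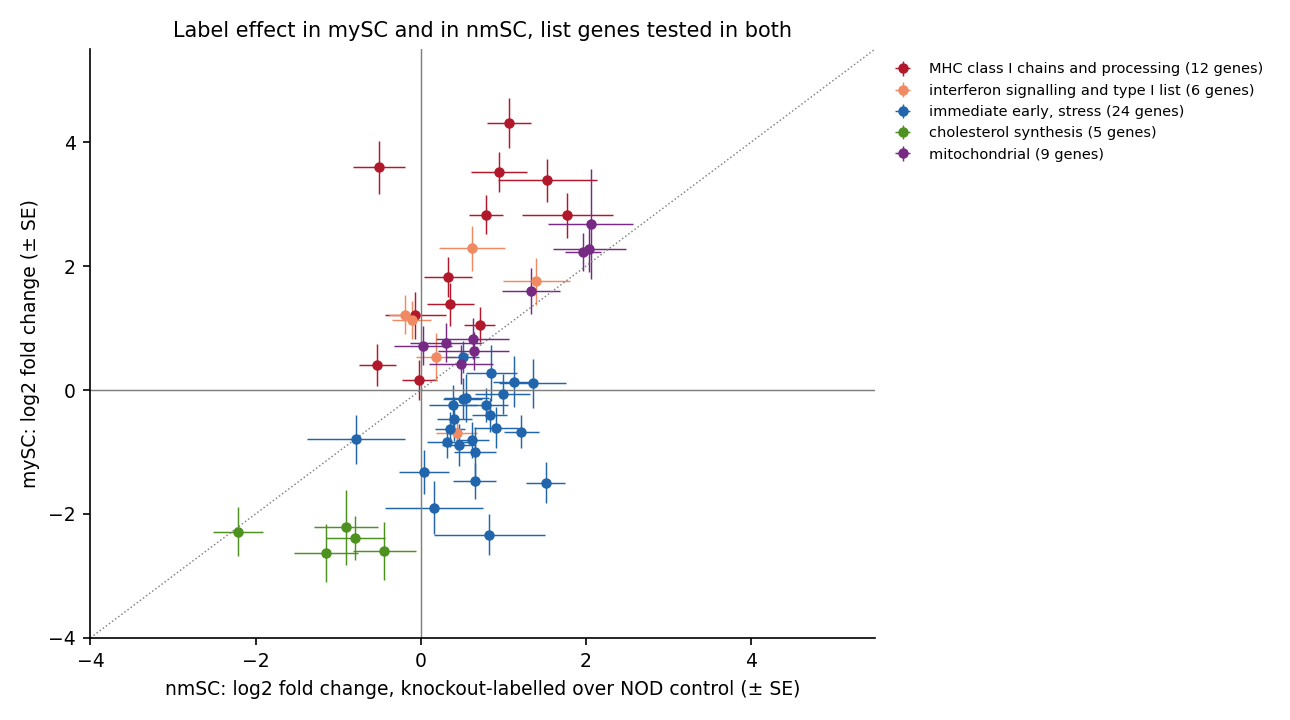
Log2 fold change of knockout-labelled over NOD control (± SE) in nmSC (x axis) and in mySC (y axis) for list genes tested in both types. H2-D1 stands at 1.07 in nmSC and 4.31 in mySC, and Fos at 0.32 in nmSC and -0.84 in mySC.

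Immediate early genes, which respond within minutes to stimulation, lay on the negative side. Of 15 in the interaction model 9 passed with a lower effect in mySC and 0 with a higher one, with a median difference of -1.15. In mySC 3 of 14 fell and 0 rose, and in nmSC 2 of 15 rose and 0 fell. The 3 of mySC became 0 without NOD control 2, 9 without NOD control 1 and 1 without knockout-labelled library 1. Fos was at 2665, 3426 and 2792 CPM in knockout-labelled mySC and at 5346 and 4604 CPM in control mySC. In nmSC it was at 3373, 3058 and 3588 CPM against 3369 and 1918 CPM, and the effects differed by -1.15 ± 0.35 (edgeR adjusted p = 0.0273). Cdkn1a, a cell cycle inhibitor induced by stress, was at 389.8, 228.4 and 298.7 CPM in knockout-labelled mySC against 381.9 and 855 CPM, and at 344.4, 555.3 and 499 CPM against 164.2 and 157.3 CPM in nmSC. Its effects differed by -2.81 ± 0.39 (edgeR adjusted p = 3.8e-10). Without NOD control 2 no immediate early gene passed in the interaction, and Fos (-0.30, edgeR adjusted p = 0.721) and Cdkn1a (-1.20, edgeR adjusted p = 0.615) were lost. Without knockout-labelled libraries 1, 2 and 3 the immediate early genes that passed numbered 2, 4 and 6 of 15, and Fos was lost each time.

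In EC 14 of 538 genes passed (2.60%), 1.12% higher and 1.49% lower, and H2-D1 was at 3806, 3591 and 4642 CPM with the label and 2204 and 2038 CPM without (0.89, edgeR adjusted p = 0.0586). Against EC, 5 of 7 class I chain genes and 5 of 7 GTPases had a larger rise in mySC, where 50 of 1076 genes (4.65%) passed, 2.79% with a larger and 1.86% with a smaller change in mySC. In EC alone 4 class I chains and 1 GTPase passed the filter on low counts. Genes that enter only through knockout-labelled mySC had to differ, so these counts are a description. The effects on H2-D1 differed by 3.34 ± 0.44 between mySC and EC (edgeR adjusted p = 4.0e-11). Bst2 was at 930.4, 708.1 and 857.1 CPM in knockout-labelled mySC against 0 and 153 CPM in control mySC. In EC it was at 915.7, 1144 and 868.3 CPM with the label and 1323 and 887.8 CPM without, so knockout-labelled mySC lay near the EC values of both groups, and the effects differed by 2.19 ± 0.43 (edgeR adjusted p = 5.2e-05). Without NOD control 2, 3 of 7 class I chains and 0 of 7 GTPases passed, and without knockout-labelled library 1, as without library 3, 2 of 5 GTPases did. Of all genes in this model 13 passed without NOD control 2, and 32 and 31 without knockout-labelled libraries 1 and 3.

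How large a part of the nerve these cells made was not settled. Among cells other than leukocytes, mySC took 35.7%, 18.4% and 34.0% in the knockout-labelled libraries and 1.57% and 28.4% in NOD control, means of 29.4% ± 9.51 (SD, n = 3) and 14.97% ± 19.0 (SD, n = 2). The difference of 14.4 percentage points lay within the spread, with an exact two-sided permutation p of 0.3, where 0.1 is the smallest possible. As a share of all annotated cells mySC were 2.44% in knockout-labelled and 10.1% in control samples, so the direction depends on the denominator. Live cells had been sorted, and the part of the sort in these shares was not tested.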

How the data were processed

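The data are droplet 3' single-cell libraries (10x, version 2 chemistry) of mouse sciatic nerve and brachial plexus. The authors deposited raw UMI counts per gene and barcode in 1 matrix of 31053 genes by 16050 barcodes, with a cell type name for 15672 of them. Cell Ranger 3.0.2 and mm10 are given in the submitters' processing notes. How cells were named, doublets treated and free RNA corrected is not given in the sources used here, nor is which of 2 sequencers ran which library.

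Python 3.11.15 was used to add up the UMIs of each cell type within a sample, with control libraries 2-1 and 2-2 as 1 sample. Differential expression used the quasi-likelihood test of edgeR 4.0.16 under R 4.3.3 (scaling by TMM, a minimum count of 10, Benjamini-Hochberg adjustment over all genes tested, threshold 0.05), and differences between cell types with an interaction term in 1 fit over both types, with the sample as a block since each sample gave both sums. The SE of a log2 fold change or difference was derived as its absolute value over the square root of the test's F statistic. Shares of cells were compared with an exact two-sided permutation test. Cells were thinned to 500 UMIs where counts of cells with a transcript were compared, which left 120 of 124 knockout-labelled, 537 of 760 NOD control and 384 of 405 C57BL/6 mySC. Promoter windows came from RefSeq (GRCm38.p6). Members, lists and class limits were chosen with earlier results of these data known. Named genes were the markers given for these cells, Icam1, the 8 genes with the largest difference each way per comparison, up to 5 members of a list and the 15 leading genes against other types. B2m, Igtp, Gbp7, Zbp1, Ubd, Ifng, Mbp, Fth1 and Fxyd1 were named after their values were seen. Scrublet (scanpy 1.11.5) marked 25 of 5250 knockout-labelled barcodes (0.476%), too few to count as working, and 0 of the 124 mySC, so doublets cannot be treated as removed. The fits were also run on simulated counts with an equal spread for every gene, which these data need not have, and no result here rests on them. A few genes are not reported here. Alternatives were RLE factors, DESeq2 1.42.0, no filter, separate control libraries, summed knockout-labelled libraries, the replicate block, cell subsets and leaving out each sample.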

Additional observations from a re-analysis of the deposited data

Results flagged for a closer look

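For these genes the label effect in mySC differed from that in nmSC or in EC by the interaction term of edgeR's quasi-likelihood fit, with 2 control samples and with NOD control 1 holding 20 mySC. Where a group had 0 UMIs, the fitted value depends on the prior count and gives a direction only. They are from the 8 genes with the largest difference each way, and the part of depth, free RNA or cell mix in them was not tested. Against nmSC, Postn, Irgm1, Ccl8, Vcam1, Tap1 and Ifit3 passed the filter on low counts only through knockout-labelled mySC. These genes had to differ, so their values are a description and no p-value is given.

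In mySC minus nmSC, Postn differed by 8.43, Sostdc1 by 6.60 and Egfl8 by 5.53. These 3 had 0 UMIs in knockout-labelled nmSC, and 57, 30 and 28 UMIs in control nmSC. Irgm1 differed by 5.11 (77 and 3 UMIs in knockout-labelled and control mySC, 6 and 21 in nmSC), Ccl8 by 4.74, Vcam1 by 4.63, Tap1 by 4.23 and Ifit3 by 4.14. Mfap5, a microfibril protein, differed by -7.51 ± 0.69 (edgeR adjusted p = 1.0e-23), with 1 and 534 UMIs in knockout-labelled and control mySC and 218 and 1194 in nmSC. Evc2 (-8.11), Nupr1 (-7.27), Igfbp5 (-7.14), Ccl7 (-7.01), Cpxm1 (-6.33), Lrp1 (-6.32) and Igfbp4 (-6.27) had 0 UMIs in knockout-labelled mySC and 90, 49, 35, 23, 20, 39 and 34 UMIs in control mySC. Evc2 passed the filter on low counts only through control mySC and had to differ, so its value is a description.

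In mySC minus EC, Iigp1 differed by 5.48, with 76 and 1 UMIs in knockout-labelled and control mySC and 33 and 28 in EC. It passed the filter on low counts only through knockout-labelled samples, so its p-value is not given. Irgm1 differed by 4.35, Ifi47 by 4.33, Gbp3 by 4.12 and Col1a1 by 3.97. Of these, Irgm1, Ifi47 and Gbp3 passed the filter on low counts only through knockout-labelled mySC. They had to differ, so their values are a description. Col1a2 (7.55) and Rarres2 (6.28) had 0 UMIs in knockout-labelled EC and 42 and 30 UMIs in control EC. Negative differences were those of Sox17 (-4.97, 0 UMIs in knockout-labelled mySC), Sncg (-4.37), Cldn5 (-3.77), Msmo1 (-3.66), Id1 (-3.16), Ecscr (-2.86), Ly6c1 (-2.85) and Cyr61 (-2.61). Msmo1 passed the filter on low counts only through control mySC and had to differ. Sox17, Cldn5 and Ecscr are endothelial genes, and Cldn5 had 1 UMI in knockout-labelled mySC against 41 in control mySC.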

How the results depend on the processing

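The count of 195 genes for mySC was 224 with RLE factors, 70 with DESeq2, 317 with control libraries 2-1 and 2-2 apart, 121 with the knockout-labelled libraries summed and 6 of 44 tested in cells without leukocyte marker UMIs, and leaving out 1 sample gave 50 (NOD control 2) to 403 (NOD control 1). The 115 genes of mySC minus nmSC became 192 with control libraries apart, 2 with summed libraries and 8 without the filter, with 13 to 148 when leaving out a sample. The 50 genes of mySC minus EC became 10 with summed libraries and 28 without the filter, with 13 to 56 when leaving out a sample. With the replicate block the 3 counts were 92, 36 and 11. With that block 3 of 7 class I chains, 1 of 7 GTPases and 0 of 10 type I genes passed in mySC minus EC, where 5, 5 and 3 had passed, and 5 of 8, 1 of 9 and 3 of 10 in mySC minus nmSC. Samples of 1 number were not taken as pairs, since their deviations correlated at -0.010 and 0.007 in mySC, 0.105 and -0.023 in nmSC and 0.124 and 0.040 in EC for numbers 1 and 2. The cause of these shifts was not tested. Of 76 named genes called in mySC, 1026 values under alternatives were 846 times on the same side of the threshold, 177 times lost and 3 times reversed.

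All reversals of genes came without NOD control 2. Leaving out a sample moved Cyr61 between -1.69 and 0.10, Dcn between -2.77 and 6.06 and Gsn between -1.33 and 0.15 in mySC. Against nmSC, Cpxm1 moved between -6.67 and 0.34, Lrp1 between -6.71 and 0.87 and Nupr1 between -7.64 and 0.43. Against EC, Irgm1 moved between -2.89 and 5.28 and Ly6c1 between -6.51 and 2.61. The share difference of 14.4 points was -7.65 over all annotated cells and 1.00 to 27.8 when leaving out a sample. The mean share of MHC-rich cells per library, 54.4% ± 1.18 (SD, n = 3), was 54.7% without thinning and 34.4% ± 15.03 (SD, n = 3) in cells without leukocyte marker UMIs, a setting chosen after seeing the data that leaves at most 10 cells. With 20 cells and 13094 UMIs in NOD control 1, low genes of the control were not detectable there.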

Other observations

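Barcodes without a cell type name also held Schwann transcripts. At least 3 UMIs of the 10 pan-Schwann genes were counted in 8 of 35, 6 of 41 and 10 of 47 unnamed barcodes of knockout-labelled libraries 1, 2 and 3, and in 3 of 15 and 4 of 38 of control libraries 2-1 and 2-2. They entered no comparison. Among C57BL/6 mySC at 500 UMIs per cell, 244 of 384 held a Pmp22 UMI and 292 of 384 a UMI of the non-myelinating genes.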
